A study of Mus musculus with 4 samples.

Results

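The genes described here make bile acids in mouse liver or control how much is made: Cyp7a1, Cyp7b1, Cyp8b1, Cyp27a1, Acox2, Slc27a5 and Baat encode enzymes, Slc10a1 a transporter, and Nr1h4 and Nr0b2 nuclear receptors. They were chosen by name as a pathway, with earlier results of these data known, so the counts below describe them and are no test of the pathway. Each of the 10 had 1 probe set of its own among the 30743 genes named on the array. All 10 lay above the filter on dim genes, a mean level of 4.32, that left 18461 genes for counting. Levels are log2 probe-set values, and a difference of 1 is 2-fold.

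The series held 4 expression arrays, 1 for each pairing of genotype (wildtype or YAP-KO) with time (0 h or 24 h), and each array carried total liver RNA pooled from 3 male mice. All mice were fasted, those at 24 h had received 300 mg/kg acetaminophen into the peritoneum, and the wildtype mice carried a floxed Yap1 gene. The Cre driver, the deleted exons, the ages and the strain are absent from the labels used here, and no untreated 24 h array was among the 4. Time, handling, feeding and the overdose therefore cannot be told apart in the 24 h difference, and with 1 pooled array per group no difference has a replicate error. Yap1, which encodes the Hippo pathway coactivator YAP, read 7.54 (0 h) and 8.24 (24 h) on the wildtype arrays against 6.31 and 6.01 on the YAP-KO arrays, so both knockout arrays were below both wildtype ones.

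Hepatocytes turn cholesterol into bile acids by a classic route, opened by CYP7A1, and an alternative route, opened by CYP27A1 and continued by CYP7B1. CYP8B1 adds the hydroxyl group that makes cholic acid and so sets the composition of the pool. The side chain is then shortened in peroxisomes and the product is joined to taurine or glycine. Bile acids returning from the gut enter hepatocytes through the transporter NTCP, bind the receptor FXR and, through the repressor SHP, restrain their own synthesis. Acetaminophen injures chiefly the hepatocytes around the central vein, where several of these enzymes are made.

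In wildtype liver, 9 of the 10 genes were at least 2-fold lower at 24 h than at 0 h, with a median difference of -2.67, and Acox2 was the exception. In YAP-KO liver 4 were at least 2-fold lower, with a median of -0.88, and the count was 6 after median centring and 7 after quantile normalization or against the wildtype 0 h array. Before acetaminophen the genotypes lay within 0.5 of each other for all 10 genes, and at 24 h 7 of 10 stood 2-fold or more above wildtype in YAP-KO. The background differed by comparison, and it was computed for the reported values only. Of all 18461 genes, 5.89% were 2-fold lower and 12.7% 2-fold higher at 24 h in wildtype, and 2.22% lower and 4.72% higher in YAP-KO, with a median over all genes of 0.07 in both genotypes.

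**Figure D1:**
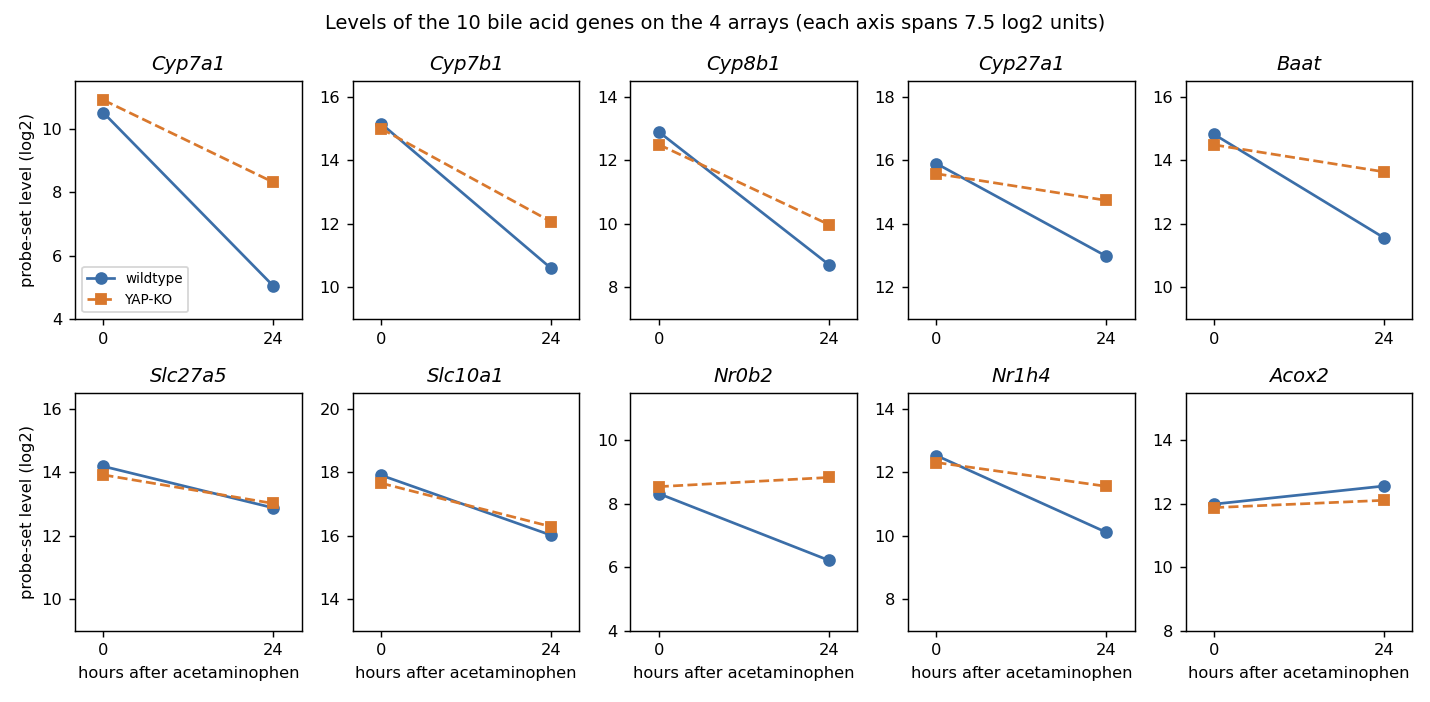
Probe-set level (log2) of each gene against hours after acetaminophen, 1 point per array of 3 pooled mice, with wildtype as circles and solid lines and YAP-KO as squares and dashed lines. At 24 h the YAP-KO point lies above the wildtype point for every gene but Acox2, and Nr0b2 is the gene whose lines run in opposite directions.

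Cyp7a1, the rate-limiting enzyme of the classic route, showed the lowest 24 h difference of the 10 in wildtype. Wildtype went from 10.50 at 0 h to 5.04 at 24 h, and YAP-KO from 10.90 to 8.31. The wildtype 24 h array was by far the lowest of the 4. The difference was -5.46 in wildtype, a 44.0-fold lower level, and -2.59 in YAP-KO, 6.02-fold lower. YAP-KO thus stood 3.27 above wildtype at 24 h, after standing 0.40 above it at 0 h. A level of 5.04 is not far above the median of all probe sets on that array, 4.32, and no detection call was used here. If that reading is mostly background, the wildtype difference, and with it the gap between the genotypes, is a lower bound.

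Cyp8b1, the enzyme of cholic acid synthesis, went from 12.90 to 8.72 in wildtype and from 12.50 to 9.98 in YAP-KO. Both 24 h arrays were below both 0 h arrays, and the knockout array stood 1.26 above the wildtype one. Its 24 h difference was -4.18 in wildtype and -2.52 in YAP-KO.

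The alternative route gave 2 unlike patterns. Cyp7b1, an oxysterol hydroxylase, started at 15.16 in wildtype and 15.00 in YAP-KO and reached 10.60 and 12.07. It was low on both 24 h arrays, by -4.56 in wildtype and -2.93 in YAP-KO, the lowest YAP-KO difference of the 10. Cyp27a1, the mitochondrial sterol hydroxylase, started at 15.90 and 15.58 and reached 12.98 and 14.74, in the same order. The wildtype 24 h array stood apart from the other 3: its difference was -2.92 there and -0.84 in YAP-KO, which is 28.8% of the wildtype difference on the log2 scale, against 64.3% for Cyp7b1.

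Activation and conjugation of the side chain also split. Baat, which joins bile acids to taurine or glycine, went from 14.82 to 11.56 in wildtype and from 14.49 to 13.64 in YAP-KO. Its differences were -3.26 and -0.85, so that YAP-KO was 2.08 above wildtype at 24 h, 4.23-fold. Slc27a5, the ligase that couples bile acids to coenzyme A before BAAT acts, went from 14.18 to 12.87 and from 13.91 to 13.01. Both genotypes were lower at 24 h by like amounts, -1.31 in wildtype and -0.90 in YAP-KO, with the 24 h arrays 0.14 apart. Acox2, the peroxisomal oxidase of the side chain, went from 11.99 to 12.56 in wildtype and from 11.88 to 12.11 in YAP-KO. It was the only gene of the 10 that was higher at 24 h in wildtype, by 0.57, and it was higher by 0.23 in YAP-KO, both under 2-fold.

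Slc10a1, which encodes NTCP, the uptake transporter on the blood side of the hepatocyte, went from 17.90 to 16.01 in wildtype and from 17.65 to 16.28 in YAP-KO. Time separated the arrays and genotype did so little: the differences were -1.89 in wildtype against -1.37 in YAP-KO, with the genotypes 0.27 apart at 24 h. None of the 10 genes came within 0.01 of the highest value of an array, where readings are treated as saturated.

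The receptors that restrain synthesis were lower with the enzymes in wildtype. Nr1h4, which encodes FXR, went from 12.52 to 10.10 in wildtype and from 12.30 to 11.55 in YAP-KO, differences of -2.42 in wildtype and -0.75 in YAP-KO. Nr0b2, which encodes SHP, the repressor that FXR induces, went from 8.32 to 6.22 in wildtype and from 8.54 to 8.83 in YAP-KO. The wildtype 24 h array was low and the other 3 lay close together. Its 24 h difference was -2.10 in wildtype and 0.29 in YAP-KO, so at 24 h YAP-KO stood 2.61 above wildtype, 6.11-fold. In wildtype the repressor gene and its target Cyp7a1 were thus lower together, and in YAP-KO Cyp7a1 was lower while Nr0b2 was not.

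**Figure D2:**
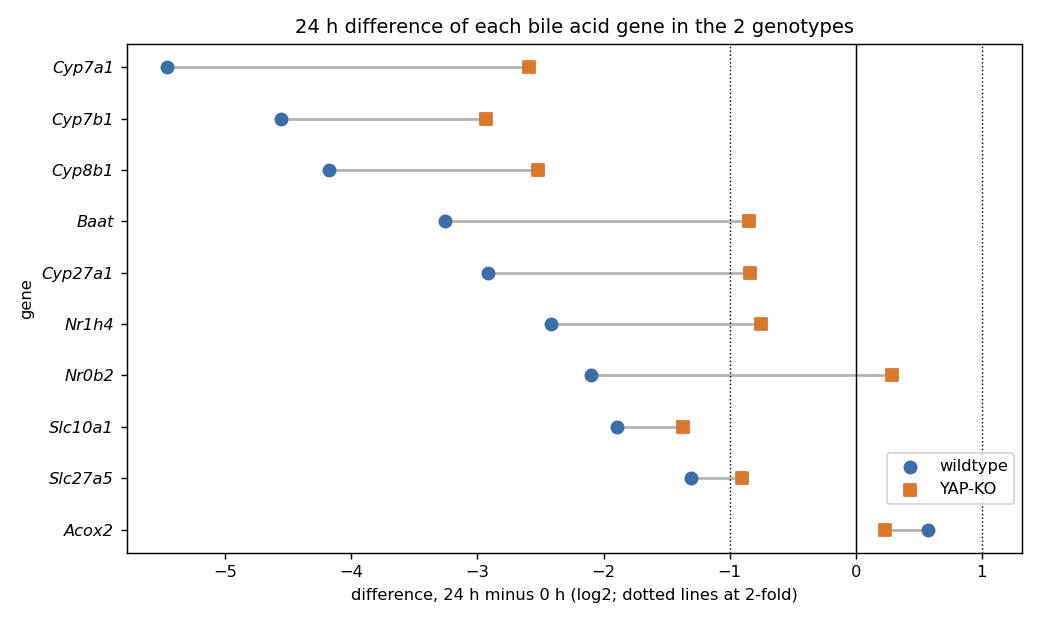
Difference between 24 h and 0 h (log2) for each of the 10 genes, ordered by the wildtype value, with wildtype as circles, YAP-KO as squares and dotted lines at 2-fold. The YAP-KO difference is nearer 0 than the wildtype difference for all 10 genes, with narrow gaps for Slc27a5 and Slc10a1 and a change of sign for Nr0b2.

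The YAP-KO difference was the smaller in size for 10 of 10 genes. This held for 64.9% of all genes, and for 96.6% of the 1087 genes that were 2-fold lower in wildtype. The smaller YAP-KO difference is therefore not particular to the bile acid genes. Those 1087 were picked by their wildtype difference, which by itself favours a smaller YAP-KO difference, here and in the 86.5% below. Of the 10, 5 genes that were 2-fold lower in wildtype were under 2-fold in YAP-KO: Cyp27a1, Baat, Slc27a5, Nr1h4 and Nr0b2. Among all genes, 1087 were 2-fold lower in wildtype and 409 in YAP-KO, so most of the 1087 were likewise less than 2-fold lower in YAP-KO. This count is thus not particular to the bile acid genes either. After quantile normalization Cyp27a1 (-1.07), Baat (-1.18) and Slc27a5 (-1.13) passed 2-fold in YAP-KO too. The YAP-KO 24 h level lay between the wildtype 24 h and 0 h levels for 9 of 10 genes, Nr0b2 being above both, against 52.0% of all genes and 86.5% of those 2-fold lower in wildtype. At 4-fold, 7 genes were lower in wildtype (1.8% of all genes) and 3 in YAP-KO (0.303% of all genes), the 3 being Cyp7a1, Cyp7b1 and Cyp8b1. Within each genotype, then, these 3 hydroxylase genes had the lowest 24 h differences of the 10. No replicate spread exists against which to read the order of genes with neighbouring values.

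Before acetaminophen the genotypes differed little in these genes. The differences of YAP-KO from wildtype at 0 h ran from -0.40 (Cyp8b1) to 0.40 (Cyp7a1), with a median of -0.23 against -0.03 over all genes. Of the 10, 8 were below 0, as were 9893 of all 18461 genes. In either direction 0 of the 10 reached 2-fold, where 0.878% of all genes were 2-fold lower and 1.01% higher. At 24 h the differences ran from -0.45 (Acox2) to 3.27 (Cyp7a1), with a median of 1.46 against -0.02 over all genes. The 7 genes at 2-fold or more higher in YAP-KO were Cyp7a1, Nr0b2, Baat, Cyp27a1, Cyp7b1, Nr1h4 and Cyp8b1, and 0 were 2-fold lower. Among all genes 3.24% were 2-fold higher and 5.73% lower in YAP-KO at 24 h. The difference of the 24 h responses, YAP-KO minus wildtype, had a median of 1.67 against 0.00 over all genes. It was 2-fold or more for the same 7 genes and ran from -0.34 (Acox2) to 2.87 (Cyp7a1), with 5.66% of all genes 2-fold higher and 7.5% lower. At 4-fold, 3 genes were higher in YAP-KO at 24 h (0.563% of all genes) and 4 in the difference of responses (0.937%). These comparisons reuse the same 4 arrays and are not independent of each other.

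The probe sets of these genes were bright, and bright probe sets were 2-fold lower at 24 h more often than the rest. Among the 6038 genes with a probe set at least as bright on average as that of Nr0b2, the dimmest probe set of the 10, 12% were 2-fold lower at 24 h in wildtype and 4.54% in YAP-KO. In the same genes 7.82% were 2-fold higher in YAP-KO than in wildtype at 24 h, and 10.9% in the difference of responses. The counts of 9, 4, 7 and 7 of 10 stood above these shares too. This floor does not match the brightness of the 10, however. Of all genes, 67.3% were dimmer than Nr0b2, but from 74.0% (Cyp7a1) to 98.5% (Slc10a1) were dimmer than the other members.

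**Figure D3:**
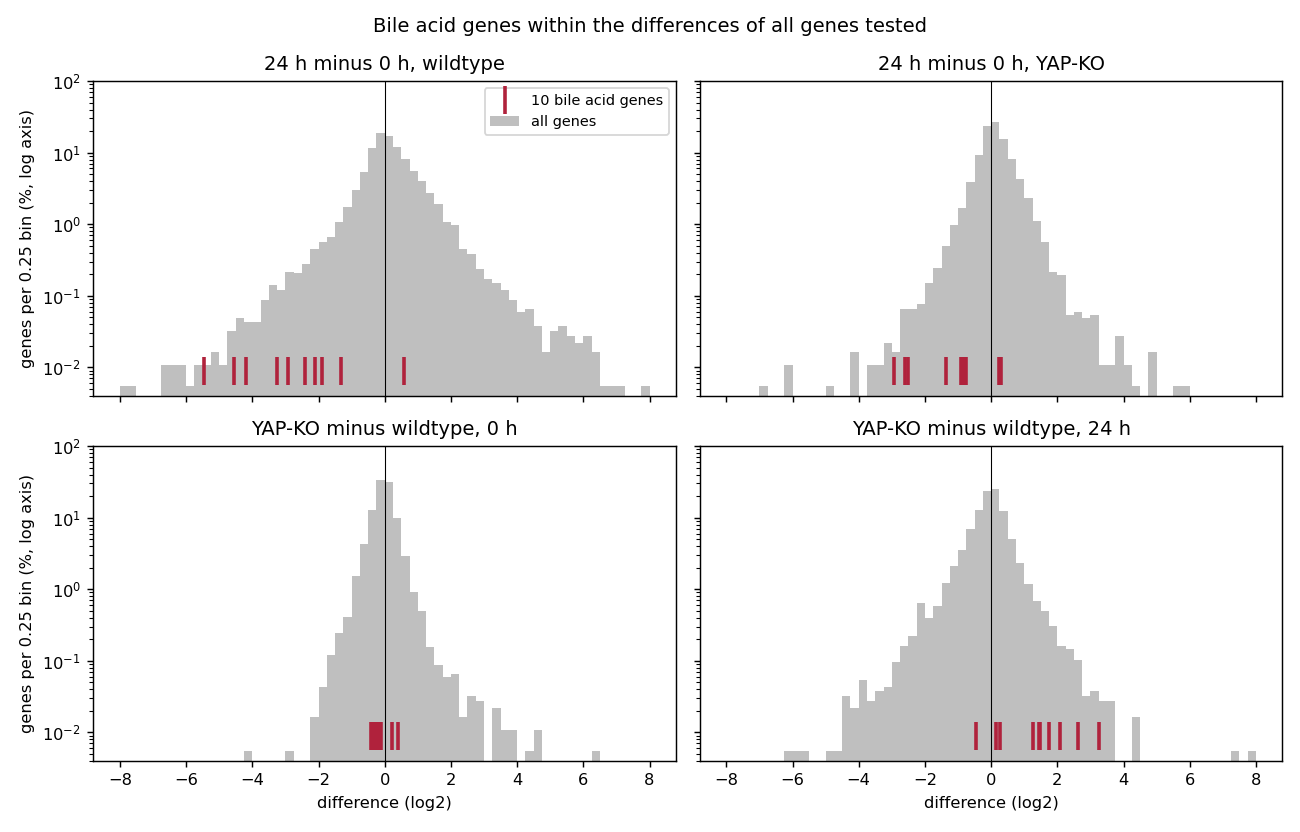
Share of all 18461 genes in bins of the log2 difference (grey bars, log axis) for the 24 h difference in each genotype and the genotype difference at each time, with the 10 bile acid genes as red ticks. In wildtype 9 ticks lie at or below -1.31 and Acox2 lies at 0.57; in YAP-KO against wildtype at 24 h 7 ticks lie at or above 1.26 and those of Acox2, Slc27a5 and Slc10a1 lie at -0.45, 0.14 and 0.27. At 0 h all 10 lie close to 0.

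The only fit across genes that left a residual was a limma model of genotype plus time over the 4 arrays, in which the single residual degree of freedom is the interaction of both. With Benjamini-Hochberg adjustment at 0.05 it called 0 of 18461 genes (0%) for time and 0 (0%) for genotype, and thus 0 of the 10. At an unadjusted p under 0.05 limma gave 2831 genes for time and 437 for genotype, including 6 and 0 of the 10. Its time estimate for Cyp7b1 was -3.74 with a standard error of 0.49 (limma adjusted p = 0.285), and for Slc10a1 -1.63 with a standard error of 0.23 (limma adjusted p = 0.285). For Nr0b2, whose genotypes diverged, it was -0.90 with a standard error of 0.70 (limma adjusted p = 0.565). The fit tested time over both genotypes and genotype over both times. The differences between single arrays given above were not tested, and the difference of responses is the residual that the fit takes as error.

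Promoter windows, from 250 bases before to 50 after an annotated start, were at hand for 6 of the 10 genes (8 windows in RefSeq, GRCm38.p6): Cyp8b1, Cyp27a1, Slc10a1, Nr0b2, Nr1h4 and Acox2. Of 5 motifs searched on both strands, 1 was found, CAAAGTCCA, a form of the site of the hepatocyte factor HNF4A, in the Cyp8b1 window at positions -67 to -59 from the start. Only exact matches were counted, so a motif not found does not show that its factor has no site there. Of all 32851 windows in the table, 0.475% held CAAAGTCCA. The others were CAAGGTCA (an extended site of NR5A2, in 1.56% of all windows), CATTCC (TEAD, the partner of YAP, 14.7%), the nuclear receptor direct repeat with a spacer of 1 base (0.0396%) and the inverted repeat of FXR with a like spacer (0.00913%). The windows of Cyp8b1 (chr9:121916256-121916555, minus strand) and Nr0b2 (chr4:133553126-133553425, plus strand) are shown because one gene was lower on both 24 h arrays and the other on the wildtype array alone. Capitals mark CAAAGTCCA, which lies close before the start of Cyp8b1 and is not in the Nr0b2 window.
Cyp8b1: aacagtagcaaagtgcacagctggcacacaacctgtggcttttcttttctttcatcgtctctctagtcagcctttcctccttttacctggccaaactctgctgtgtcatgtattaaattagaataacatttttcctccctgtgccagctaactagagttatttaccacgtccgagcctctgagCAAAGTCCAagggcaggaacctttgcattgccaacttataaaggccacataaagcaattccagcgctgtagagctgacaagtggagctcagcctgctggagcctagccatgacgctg
Nr0b2: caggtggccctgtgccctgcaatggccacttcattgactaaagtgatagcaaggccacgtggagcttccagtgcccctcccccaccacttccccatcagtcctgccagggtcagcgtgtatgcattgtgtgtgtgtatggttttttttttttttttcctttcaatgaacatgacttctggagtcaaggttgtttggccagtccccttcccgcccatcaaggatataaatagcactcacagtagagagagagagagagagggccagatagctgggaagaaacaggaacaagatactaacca

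Other enzymes of the pathway showed the same split by genotype in part. Of 16 listed, 8 were 2-fold lower and 2 higher at 24 h in wildtype (median -1.04). In YAP-KO 2 were lower and 2 higher (median -0.11). Of all genes, 5.89% were 2-fold lower and 12.7% higher in wildtype, and 2.22% lower and 4.72% higher in YAP-KO. The 2 higher genes in wildtype thus lay near the share of all genes. Akr1d1, the steroid reductase after CYP7A1, had the lowest difference in both genotypes. It went from 12.74 to 9.51 in wildtype and from 12.32 to 11.02 in YAP-KO. Cyp2c70, which makes muricholic acids in mice, differed most between the responses: it went from 18.32 to 15.46 in wildtype and from 18.29 to 18.69 in YAP-KO. Akr1c6 (-2.83 against -0.27) and Hsd3b7, the dehydrogenase of the classic route (-2.05 against 0.35), were also 2-fold lower in wildtype alone. Ch25h, the cholesterol hydroxylase that macrophages also make, went the other way, 4.57 higher in wildtype and 2.59 higher in YAP-KO. Its 0 h levels of 4.64 in wildtype and 4.43 in YAP-KO lay near the medians of those arrays, 4.47 and 4.46. If these readings are mostly background, both differences are lower bounds. The acyltransferase gene Acnat2 was 1.25 and 2.17 higher.

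Of 12 transporter genes above the filter, 7 were 2-fold lower and 1 higher at 24 h in wildtype (median -1.59). In YAP-KO 6 were lower and 1 higher (median -0.88). Over all genes the shares were 5.89% lower and 12.7% higher in wildtype, and 2.22% and 4.72% in YAP-KO. The 1 higher gene in wildtype did not exceed that share. Slco1b2, an uptake transporter gene, had the lowest wildtype difference and the largest gap between the responses: it went from 17.58 to 13.21 in wildtype and from 16.93 to 15.59 in YAP-KO. The uptake transporter gene Slco1a1 went from 16.36 to 12.49 in wildtype and from 16.20 to 14.95 in YAP-KO. Abcb11, the bile salt export pump gene, went from 15.63 to 11.29 and from 15.47 to 13.60, and the cholesterol exporter gene Abcg8 from 11.57 to 8.59 and from 10.88 to 10.25. Slc10a1, by contrast, was nearly the same in both genotypes at 24 h. Abcc3, which exports bile acids to blood, differed the other way: YAP-KO minus wildtype was -1.44 at 24 h, from 24 h differences of 0.10 in wildtype and -1.19 in YAP-KO. Atp8b1, a phospholipid flippase of the canalicular membrane, was higher by 0.39 and 1.38.

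Among 14 regulators above the filter, 5 were 2-fold lower and 0 higher at 24 h in wildtype (median -0.89). In YAP-KO 3 were lower and 1 higher (median -0.45). The shares of all genes were again 5.89% lower and 12.7% higher in wildtype, and 2.22% and 4.72% in YAP-KO. Nr5a2, encoding LRH-1, the activator of Cyp7a1 that SHP blocks, went from 11.09 to 9.29 in wildtype and from 11.31 to 10.81 in YAP-KO, differences of -1.80 and -0.50. Klb, the coreceptor of the gut hormone FGF15, had differences of -2.16 and -1.04. Its partner Fgfr4 went from 7.39 to 7.49 in wildtype and from 7.29 to 8.29 in YAP-KO. Hnf4a, an activator of Cyp7a1 and Cyp8b1, differed the other way between the genotypes, with -0.90 in wildtype and -1.45 in YAP-KO, having been 0.80 higher in YAP-KO at 0 h. Fgf15 itself, made in the gut, lay below the filter at 2.97 to 3.32.

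**Figure D4:**
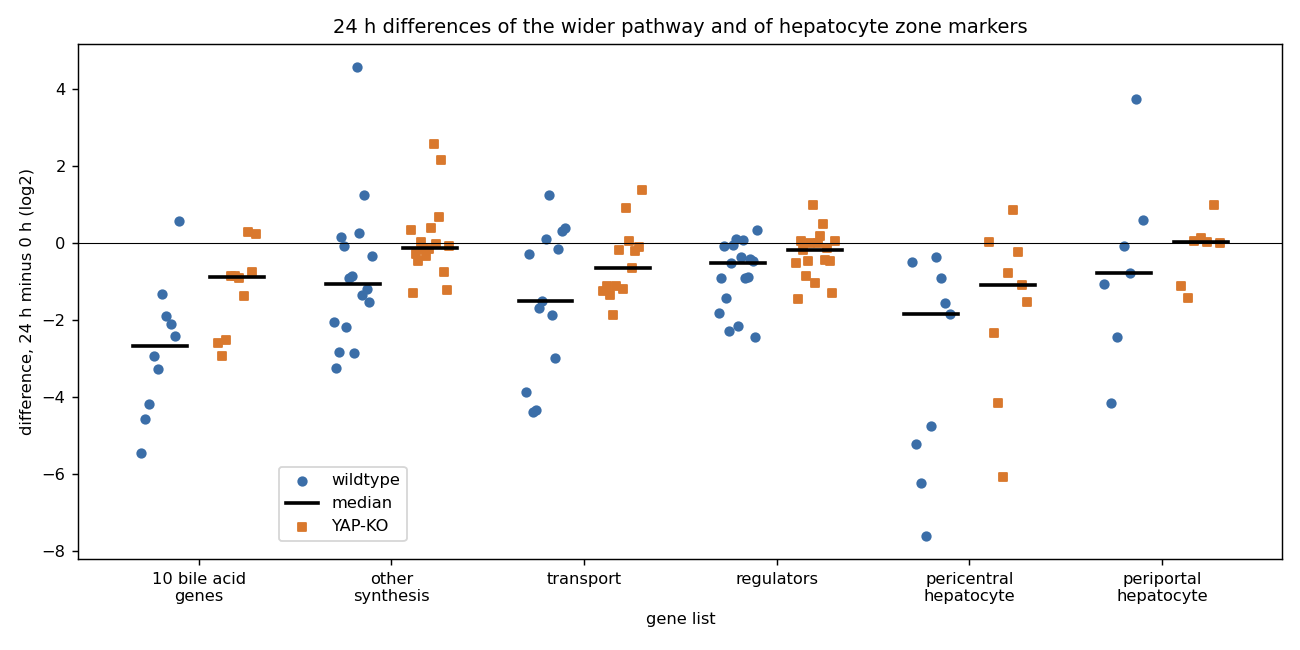
Difference between 24 h and 0 h (log2) of each gene with its own probe set in 6 lists, wildtype as circles and YAP-KO as squares, with black lines at the list medians, dim genes included. The wildtype median lies below the YAP-KO median in every list shown, at -2.67 against -0.88 in the 10 bile acid genes, -0.52 against -0.17 in the regulators and -0.76 against 0.04 in the periportal list. Both periportal medians are those of Cps1, which was near the highest value of every array but the wildtype 24 h one.

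Markers of cell types moved between the arrays as well, and in bulk RNA fewer cells of a type and less RNA per cell cannot be told apart. The tissue label fits its markers: 9 of 10 hepatocyte markers reached the highest value of at least 1 array, where differences are hidden or only bounded. One of these, Tat, read 19.30 on the wildtype 24 h array and was saturated on the other 3, so it was at least 0.56 lower there than at 0 h. Asgr1, the marker never saturated, went from 13.37 to 12.75 in wildtype and from 13.19 to 13.77 in YAP-KO. Beside the counts that follow, 5.89% of all genes were 2-fold lower and 12.7% higher in wildtype, and 2.22% and 4.72% in YAP-KO. Of 9 pericentral hepatocyte markers, 6 were 2-fold lower in wildtype (median -1.83) and 5 in YAP-KO (median -1.09), with Slc1a2 lowest (-7.60 and -6.06) and Lect2 highest (-0.35 and 0.87). Without Cyp2e1, which was saturated on 3 arrays, the pericentral medians were -3.29 and -1.31, so in wildtype below the -2.67 of the bile acid genes. The mean level of the 9 went from 12.68 to 9.47 and from 12.60 to 10.90. Of 7 periportal markers, 3 were lower and 1 higher in wildtype (median -0.76), and 2 lower and 0 higher in YAP-KO (median 0.04). The 1 higher in wildtype lay near the share of all genes. Hal was lowest (-4.16 and -1.43) and Cdh1 highest (3.74 and 0.99). Both medians were the values of Cps1. It read 19.84 (wildtype) and 19.81 (YAP-KO) at 0 h and 19.85 in YAP-KO at 24 h. The highest values of those arrays were 19.86, 19.83 and 19.88, so its differences may be hidden in part. The mean level of 7 neutrophil markers, dim ones included, went from 5.23 to 7.24 in wildtype and from 5.38 to 6.13 in YAP-KO. Of the 6 above the filter, 4 were higher by 2-fold in wildtype and 3 in YAP-KO. In wildtype S100a8 was highest (4.65) and Ly6g lowest (-0.63). The mean of macrophage markers went from 8.09 to 9.79 and from 8.02 to 9.02, with 5 and 3 of 8 higher, Cd68 highest (4.33 and 4.34) and Clec4f lowest (0.00 and -0.70). Cholangiocyte markers Krt19, Krt7 and Epcam read between 4.30 and 5.26 on every array, whereas Sox9 was higher at 24 h by 2.53 in wildtype and 1.47 in YAP-KO. Array medians over all probe sets ran from 4.32 to 4.47. The readings of Krt19, Krt7 and Epcam may thus be mostly background and cannot show that these genes were steady. The part of these cell type differences in the bile acid genes was not tested.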

How the data were processed

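Total RNA from mouse liver was biotinylated with the GeneChip WT Plus kit and hybridised to 1 array per group, per the labels. The deposited values were taken as log2 from their range (2.24 to 19.93), and the authors' background correction, summarisation and normalization are not given in the sources used here. Array medians ran from 4.32 to 4.47 over 65956 probe sets. Of these, 31216 carried 1 gene in the platform annotation, 1534 several and 33206 none. Symbols were updated through RefSeq (GRCm38.p6), and the brightest probe set represented a gene. Genes dimmer on average than the 40th percentile were left out of counts.

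Differences were taken between single arrays, with 2-fold as the call. The additive fit used limma 3.58.1 in R 4.3.3, with lmFit and eBayes, and was tested on simulated data. The simulated data held shifts with time but no interaction of genotype and time, so they do not show how the fit behaves where the genotypes diverge. The number of arrays limits the precision, and whether arrays shared a batch is not stated in the labels. The 10 genes and the other lists were chosen with earlier results of these data known. Named genes were the 10, Yap1, up to 4 extremes of each pathway list and the lowest and highest member of the zone and leukocyte marker lists; other genes named were chosen after their values were seen. Alternatives were quantile normalization, median centring, other probe set rules, filters and folds, and the 0 h array of the other genotype, which was added after the data were seen.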

Additional observations from a re-analysis of the deposited data

Results flagged for a closer look

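Nr0b2, which encodes the repressor SHP, had 24 h differences of opposite sign in the genotypes, -2.10 in wildtype and 0.29 in YAP-KO, a difference of 2.39 between the responses. Each response rests on 2 single arrays, and the difference between them was not tested.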

How the results depend on the processing

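No gene of the 10 changed sign for a difference of 2-fold or more, and 112 of 120 single-gene values kept their side of 2-fold under quantile normalization, median centring and the other 0 h array. Averaging probe sets and leaving out saturated genes could not move these genes, each with 1 unsaturated probe set. The other 8 values passed 2-fold in YAP-KO at 24 h where the reported values did not, for Cyp27a1, Baat and Slc27a5. The count of genes lower in YAP-KO, reported as 4 at 2-fold, was 6 after median centring and 7 after quantile normalization. It was 7 against the wildtype 0 h array and 8 at a 1.5-fold call. The share of all genes was not computed for these 4 alternatives, so their counts have no background beside them. The medians were -1.15 after quantile normalization and -1.17 against the wildtype 0 h array. The wildtype median was -2.89 after quantile normalization, -2.93 after median centring and -2.46 against the YAP-KO 0 h array. At a 4-fold call, 3 genes were higher in YAP-KO at 24 h and 4 in the difference of responses, where 0.563% and 0.937% of all genes were. The additive fit called 0 genes by limma under every filter, normalization, probe set rule and variance prior tried. No paired analysis was possible because each group has 1 array and all carry replicate number 1, and for the same reason no replicate could be left out. Without detection calls, signal over background sets no known limit for Cyp7a1 at 24 h.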
